A study of Mus musculus with 9 samples.

Results

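The genes described here are 5 matrix metalloproteinases (Mmp2, Mmp3, Mmp8, Mmp9 and Mmp14) and the 4 tissue inhibitors of metalloproteinases (Timp1, Timp2, Timp3 and Timp4). They were taken by gene symbol from a table of read counts, in which they are 9 of 54532 gene identifiers, and each of the 9 passed the filter on low counts in every comparison. The counts come from heart RNA of wild-type male C57BL/6J mice, 8 to 10 weeks old at purchase, with 3 libraries in each of 3 groups. The left anterior descending coronary artery of MIRI mice (myocardial ischemia/reperfusion injury) was tied for 30 min and reperfused for 24 h, and these mice received saline. GXNI mice had the same operation and received Guanxinning injection, an extract of Danshen and Chuanxiong, at 9 mL/kg. Sham mice had the chest opened and the thread placed but not tied. Operated is used below for the MIRI and GXNI libraries only, whose artery was tied. All injections went into the tail vein within 10 min of the onset of ischemia. The study describes the 3 libraries of a group as 3 different mice.

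Matrix metalloproteinases are zinc enzymes that cut collagens and other proteins of the extracellular matrix, and most are secreted as inactive precursors. TIMPs bind the active enzymes and block them, and the balance of the 2 families is studied in the infarcted heart because it bears on how injured muscle is cleared and replaced by scar. Transcript counts measure neither activation of the enzymes nor inhibitor bound to them.

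The libraries held between 17119454 and 22811295 counted reads. The smallest count behind any value of the 9 genes was 11, for Mmp8 in the library labelled MIRI 2. The labels give heart as the tissue and "Cardiomyocytes" as the cell type, and the study describes RNA of heart tissue with no isolation of cells. All 10 endothelial, all 10 fibroblast and all 10 macrophage and monocyte markers had counts in every library, so the libraries hold RNA of whole tissue. In such bulk RNA, fewer cells of a type and less RNA per cell cannot be told apart. Levels are given as CPM, the usual counts scaled to a fixed library size after TMM normalization, which allows for library composition, and as CPM per kilobase of exon wherever genes are compared with each other.

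The libraries of 1 operated group did not lie together. On the first principal component of 15226 genes, which held 64.6% of the variance, the sham libraries lay between -59.8 and -52.2. The MIRI libraries lay at 61.5, -44.5 and 83.4, and the GXNI libraries at -43.6, 18.8 and 94.4. The libraries labelled MIRI 2 and GXNI 1 thus lay beside the sham libraries, and the library labelled GXNI 3 farthest from them. By rank correlation no operated library had its nearest neighbour in its own group. MIRI 1 and MIRI 3 were nearest to GXNI 3, MIRI 2 to GXNI 1, GXNI 1 to sham 1, GXNI 2 to MIRI 1, and GXNI 3 to MIRI 3. Groups follow the labels throughout, and results are also given without the libraries labelled MIRI 2 and GXNI 3, a choice made with their profiles known. That choice kept GXNI 1, which lay about as near to the sham libraries as MIRI 2 did. To describe ischemia and reperfusion, the mean of the MIRI and GXNI groups was also compared with sham, called I/R against sham below. This comparison depends less on which operated library carries which label. The fit kept the 2 groups apart, so its estimates, errors and p-values still depend in part on the labels. At the thresholds of the study it put 622 genes as higher and 380 as lower. With the operated libraries as 1 group it was 840 and 434.

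The 9 genes lie on 9 different stretches of the mouse genome (build GRCm38), with Mmp3 (chr9:7445822-7455975) and Mmp8 (chr9:7558456-7568485) in the same region of chromosome 9, both on the plus strand. Timp1 (chrX:20870166-20874735, plus strand) lies in an intron of Syn1, Timp3 (chr10:86300372-86349506, plus strand) shares 1733 bp of exon with Syn3 on the other strand, and Timp4 (chr6:115241892-115252205, minus strand) shares 90 bp with Syn2 on the other strand. The strand setting of the counting is not given in the sources used here. Over the 9 libraries Syn1 had 107 counts, Syn3 had 116 and Syn2 had 978, but counts given to a partner do not measure the reads from the shared bases, which cannot be told apart. The remaining positions are chr8:92827291-92853420 for Mmp2, chr2:164940780-164955850 for Mmp9, chr14:54431612-54445364 for Mmp14, all on the plus strand, and chr11:118301069-118355740 on the minus strand for Timp2.

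Promoter sequences of RefSeq (build GRCm38.p6) were matched by symbol for 7 of the 9 genes, all but Mmp2 and Mmp9. The 250 bases before the start of 4 of them are shown, because Timp1 was called in both comparisons with sham, Mmp8 and Mmp14 had their 4 highest levels in the same 4 libraries as Timp1, and Mmp3, which lies in the same cluster as Mmp8, did not. They lie at chr9:7445572-7445821 for Mmp3, chr9:7558179-7558428 for Mmp8, chr14:54431348-54431597 for Mmp14 and chrX:20869916-20870165 for Timp1, all on the plus strand, and capitals mark an AP-1 motif.
Mmp3: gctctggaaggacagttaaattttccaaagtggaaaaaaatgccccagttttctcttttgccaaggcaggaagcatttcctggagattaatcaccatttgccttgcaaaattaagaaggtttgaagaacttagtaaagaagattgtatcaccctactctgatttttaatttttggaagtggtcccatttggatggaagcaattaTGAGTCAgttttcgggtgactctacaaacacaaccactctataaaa
Mmp8: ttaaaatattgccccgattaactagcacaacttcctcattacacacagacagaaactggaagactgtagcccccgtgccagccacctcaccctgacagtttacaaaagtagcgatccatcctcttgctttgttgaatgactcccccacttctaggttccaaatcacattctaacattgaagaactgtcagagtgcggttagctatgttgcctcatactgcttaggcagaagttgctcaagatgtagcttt
Mmp14: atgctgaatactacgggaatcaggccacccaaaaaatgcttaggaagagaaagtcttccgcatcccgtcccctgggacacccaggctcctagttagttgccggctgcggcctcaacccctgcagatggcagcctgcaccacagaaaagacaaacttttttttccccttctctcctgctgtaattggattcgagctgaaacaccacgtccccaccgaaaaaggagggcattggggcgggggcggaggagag
Timp1: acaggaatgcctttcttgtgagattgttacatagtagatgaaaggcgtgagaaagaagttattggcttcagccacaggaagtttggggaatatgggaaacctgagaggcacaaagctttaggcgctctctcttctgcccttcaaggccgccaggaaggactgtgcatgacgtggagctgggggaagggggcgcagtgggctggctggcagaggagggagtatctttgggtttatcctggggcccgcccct
The AP-1 motif was searched as TGANTCA on both strands over 250 bases before and 50 after the start. Of the 7 promoters only that of Mmp3 held it, as TGAGTCA, from 46 to 40 bases before the start. The motif stood in 7.81% of 32851 mouse promoters of the same length. The NF-kB motif stood in 8.46% of them and in none of the 7. No match says only that these letters are absent from the window.

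Timp1, a secreted inhibitor that is strongly induced in injured tissue, was higher after ischemia and reperfusion in every operated library. It stood at 17.1, 8.83 and 20.2 CPM in sham libraries 1 to 3, at 127.8, 32.1 and 217.2 CPM in MIRI libraries 1 to 3, and at 36.3, 105.6 and 209.4 CPM in GXNI libraries 1 to 3. The 6 operated libraries lay above the 3 sham libraries without overlap, which was the case for 7.96% of the 15207 genes tested, and 8.89% lay below without overlap. Timp1 was the only one of the 9 genes with this separation, and none lay below.

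In I/R against sham, Timp1 was 7.90-fold higher, a log2 fold change of 2.98 ± 0.74 (SE, 6 against 3 libraries). Called here means that a gene passed both thresholds of the study, a fold change of 1.5 or more and a p of 0.01 or less before adjustment. With an unadjusted p of 0.00316 in edgeR's quasi-likelihood test, Timp1 was the only called gene of the 9. The adjusted p of that test (Benjamini-Hochberg over all genes tested) was 0.125. In edgeR 0.0% of genes had an adjusted p of at most 0.05 and a fold change of 1.5 or more, while 4011 had an unadjusted p under 0.05. DESeq2 put 1059 of 29337 genes as higher and 434 as lower at that adjusted p and fold change. In edgeR the thresholds of the study called 4.09% of all genes as higher and 2.5% as lower, so 1 of 9 higher and 0 of 9 lower is near that background. By DESeq2, the tool of the study, the called genes of I/R against sham were Timp1, Mmp9 and Mmp14, with adjusted p of 0.000145, 0.0143 and 0.0327, and the same 3 were called in MIRI against sham. At the thresholds of the study DESeq2 called 1343 genes as higher and 601 as lower of 29337 in I/R against sham. In MIRI against sham it called 1491 and 760 of 27898. The call of Timp1 was lost without the library labelled sham 1 (unadjusted p = 0.0124 in edgeR's quasi-likelihood test) and without sham 2 (0.0160), and over all fits that left out 1 library its log2 fold change lay between 2.62 and 3.22. Over all genes, 208 of 15590 were called as higher without sham 1 and 161 of 15570 without sham 2.

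**Figure D1:**
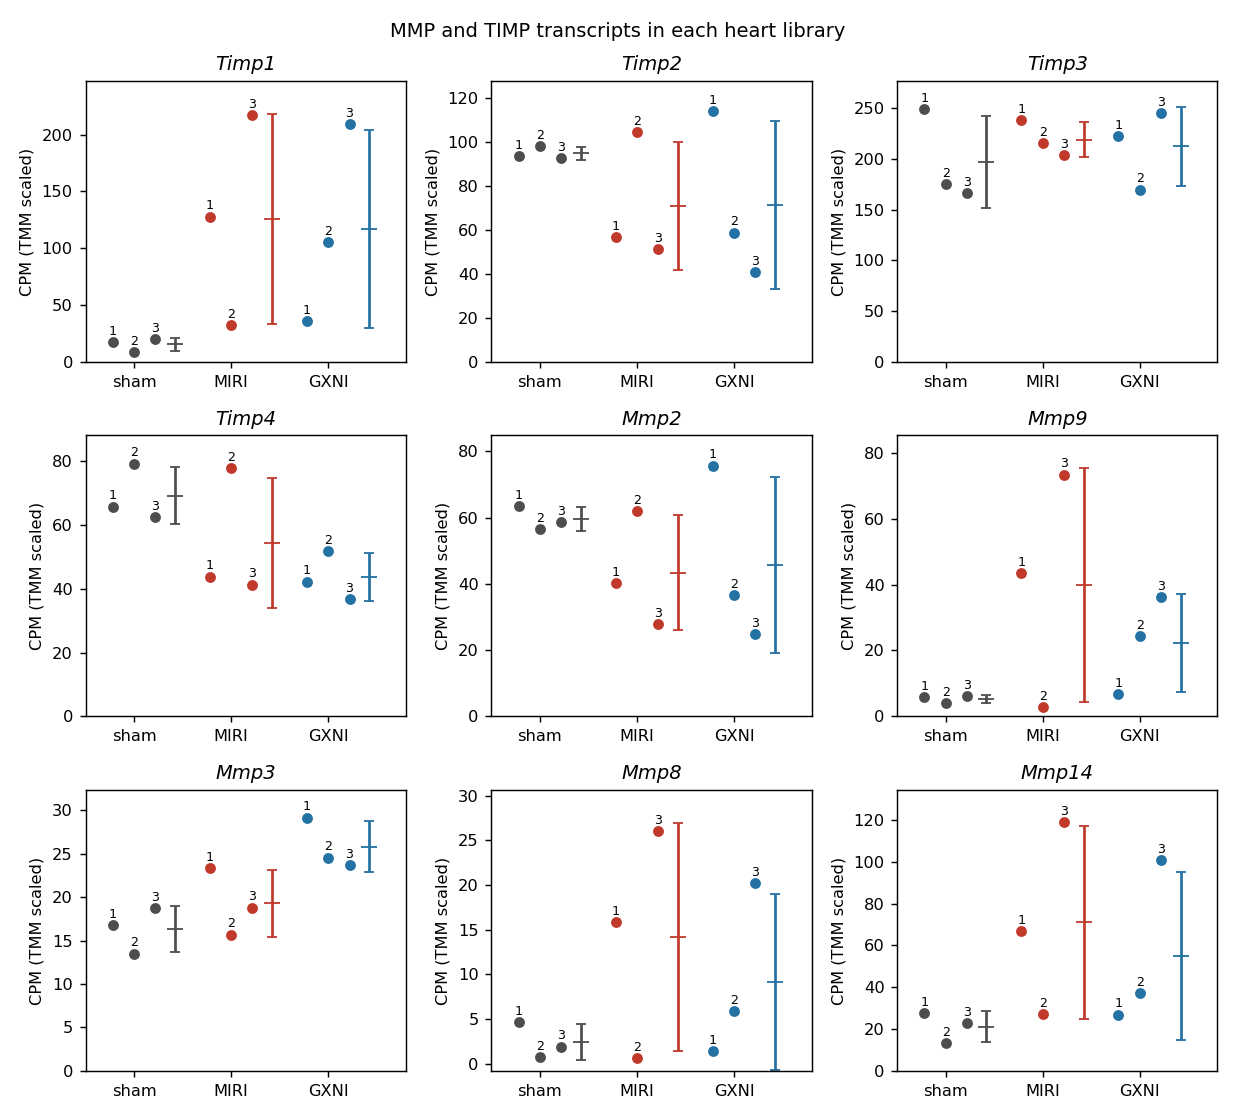
Level of each of the 9 genes in CPM (TMM scaled, linear axis from 0, extended below 0 for Mmp8 to hold an error bar) in the 3 sham, 3 MIRI and 3 GXNI libraries, numbered as labelled, with the group mean and SD (n = 3) beside the points. Timp1 stood above the sham libraries in all 6 operated libraries, Mmp9, Mmp8 and Mmp14 were high in MIRI 1, MIRI 3 and GXNI 3 and near sham in MIRI 2 and GXNI 1, and Mmp3 was highest in the GXNI group.

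Timp2 and Timp4, inhibitors that are present in the uninjured heart, stood lower in part of the operated libraries. Timp2 was at 93.7, 98.4 and 92.7 CPM in sham, 56.8, 104.4 and 51.4 CPM in MIRI, and 114.3, 58.9 and 40.8 CPM in GXNI. The libraries labelled MIRI 2 and GXNI 1 were above every sham library, and the other 4 operated libraries were below. The log2 fold change in I/R against sham was -0.41 ± 0.33 (SE, adjusted p = 0.421 in edgeR's quasi-likelihood test).

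Timp4, the TIMP known for its high expression in heart muscle, was at 65.8, 79.3 and 62.5 CPM in sham, 43.8, 77.9 and 41.3 CPM in MIRI, and 42.3, 51.8 and 36.9 CPM in GXNI. Only the library labelled MIRI 2 reached the sham range. The log2 fold change in I/R against sham was -0.50 ± 0.22 (SE, adjusted p = 0.188 in edgeR's quasi-likelihood test), short of the fold threshold. Unlike Timp2, Timp4 was also low in GXNI 1, and the 3 GXNI libraries lay below the 3 sham libraries, as did 15.4% of all genes.

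Timp3, the inhibitor that stays bound to the matrix, was at 248.5, 174.6 and 166.3 CPM in sham, 237.7, 215.6 and 203.3 CPM in MIRI, and 222.0, 169.6 and 245.2 CPM in GXNI. The groups overlapped fully, and the log2 fold change in I/R against sham was 0.14 ± 0.18 (SE, adjusted p = 0.607 in edgeR's quasi-likelihood test).

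Per kilobase of exon, Timp2 and Timp3 were the leading TIMP transcripts of the sham heart and Timp1 was the leading one after ischemia and reperfusion. In sham, Timp2 stood at 24.4 ± 0.77, Timp3 at 24.1 ± 5.6, Timp1 at 17.3 ± 6.6 and Timp4 at 11.7 ± 1.5 CPM per kilobase (SD, n = 3). The order of Timp2 and Timp3, and of Timp3 and Timp1, was within these SDs. Timp1 made up 22.7%, 14.2% and 29.3% of the summed TIMP level in sham libraries, 73.8%, 35.2% and 84.4% in MIRI, and 39.0%, 72.7% and 83.4% in GXNI. Every operated library had a larger Timp1 share than every sham library. The TIMP sum was 77.5 ± 7.5 CPM per kilobase in sham, 195.8 ± 93.5 in MIRI and 183.7 ± 90.7 in GXNI (SD, n = 3). These shares and sums are a description with no test.

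**Figure D2:**
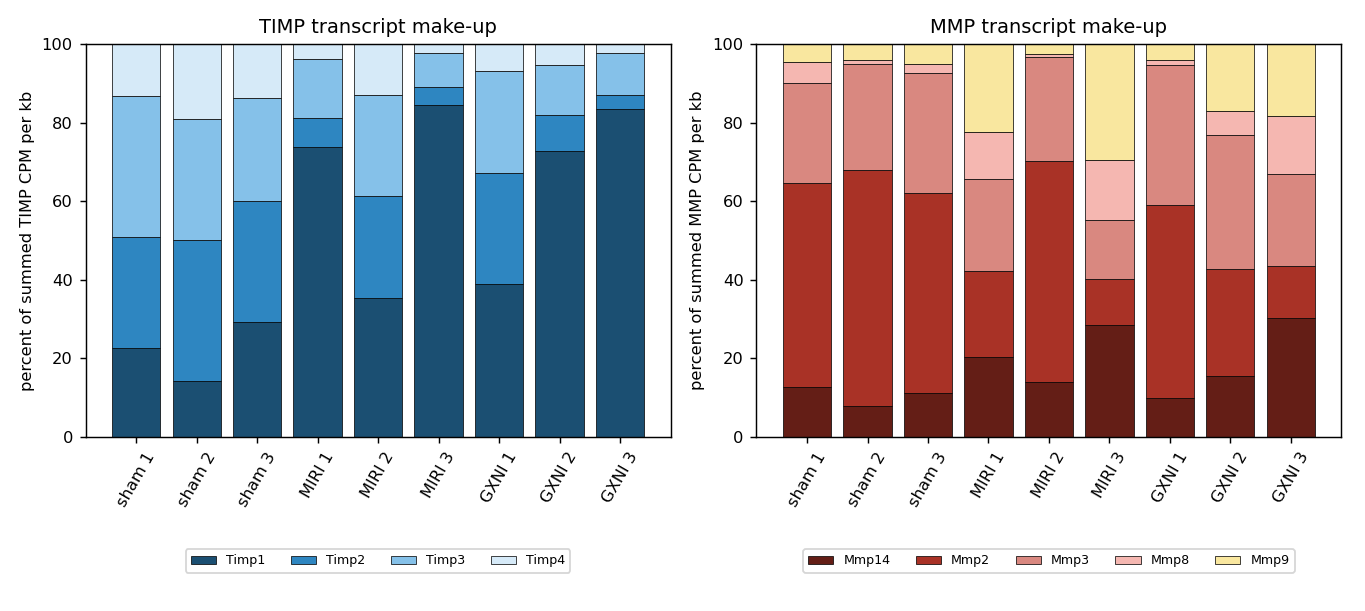
Share of each gene in the summed level per kilobase of exon of the 4 TIMPs (left) and the 5 MMPs (right), in percent, with 1 bar for each library. Timp1 took 14.2% to 29.3% of the TIMP sum in sham libraries and 35.2% to 84.4% in operated libraries. In MIRI 1, MIRI 3, GXNI 2 and GXNI 3 the share of Mmp2 was below every sham library. The shares of Mmp9, Mmp8 and Mmp14 were above every sham library there. Mmp3 had the largest MMP share in MIRI 1 (23.6%) and GXNI 2 (34.1%).

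The gelatinases, which cut denatured collagen and basement membrane collagen, took different courses. Mmp9, carried by neutrophils and macrophages, was at 5.86, 3.97 and 6.10 CPM in sham, 43.4, 2.82 and 73.4 CPM in MIRI, and 6.66, 24.3 and 36.1 CPM in GXNI. The library labelled MIRI 2 was below all sham libraries and the other 5 operated libraries were above them. The log2 fold change in I/R against sham was 2.49 ± 0.90 (SE, unadjusted p = 0.0226, adjusted p = 0.148 in edgeR's quasi-likelihood test), so the 5.63-fold difference of Mmp9 was not called.

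Mmp2, made mainly by fibroblasts and other mesenchymal cells, was at 63.5, 56.6 and 58.8 CPM in sham, 40.2, 62.1 and 27.98 CPM in MIRI, and 75.7, 36.5 and 24.9 CPM in GXNI. It was low in the 4 operated libraries where Timp2 was low. Its log2 fold change was -0.41 ± 0.35 (SE, adjusted p = 0.444 in edgeR's quasi-likelihood test). The ratio of Mmp9 to Mmp2 in CPM per kilobase lay between 0.0668 and 0.0989 in sham libraries, reached 1.03 and 2.50 in MIRI 1 and MIRI 3 and 0.633 and 1.38 in GXNI 2 and GXNI 3, and stayed at 0.0433 and 0.0838 in MIRI 2 and GXNI 1.

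Mmp14 is a membrane-type enzyme that, with Timp2 as a bridge, activates the precursor of Mmp2 at the cell surface. It was at 27.6, 13.2 and 22.8 CPM in sham, 66.7, 27.2 and 119.1 CPM in MIRI, and 26.9, 37.3 and 101.0 CPM in GXNI. In 4 operated libraries it exceeded every sham library, and in MIRI 2 and GXNI 1 it was just under the highest sham value. The log2 fold change in I/R against sham was 1.56 ± 0.57 (SE, unadjusted p = 0.0225, adjusted p = 0.148 in edgeR's quasi-likelihood test), a 2.96-fold difference of Mmp14 that was not called.

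The 3 transcripts of that activation complex did not keep their proportions. Mmp2 and Timp2 did: their ratio in CPM per kilobase lay between 0.630 and 0.819 in all 9 libraries, and Timp2 was among the 3 genes most like Mmp2 across libraries. The ratio of Mmp14 to Timp2 was 0.192, 0.0877 and 0.161 in sham, 0.768, 0.170 and 1.52 in MIRI, and 0.154, 0.414 and 1.62 in GXNI. It was above the sham range in 4 operated libraries and within it in MIRI 2 and GXNI 1.

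Mmp8, the collagenase stored in neutrophil granules, had the largest standard error of the 9 genes in each comparison. It was at 4.67, 0.79 and 1.93 CPM in sham, 15.9, 0.65 and 26.1 CPM in MIRI, and 1.44, 5.90 and 20.2 CPM in GXNI. The libraries labelled MIRI 2 and GXNI 1 were within or below the sham range. The log2 fold change in I/R against sham was 2.21 ± 1.15 (SE, adjusted p = 0.240 in edgeR's quasi-likelihood test). It was 3.07 without sham 1 and 1.56 without GXNI 3.

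Mmp3, stromelysin, which cuts many matrix proteins and activates other MMP precursors, followed another order. It was at 16.8, 13.5 and 18.7 CPM in sham, 23.3, 15.7 and 18.8 CPM in MIRI, and 29.2, 24.5 and 23.7 CPM in GXNI. The GXNI libraries lay above all 6 others, which was the case for 0.289% of genes, and the MIRI and sham libraries overlapped. The log2 fold change in I/R against sham was 0.46 ± 0.17 (SE, adjusted p = 0.152 in edgeR's quasi-likelihood test).

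Within the MMPs, Mmp2 was the leading transcript in sham, at 54.3% ± 5.0 of the summed CPM per kilobase, followed by Mmp3 at 27.6% ± 2.5 and Mmp14 at 10.6% ± 2.5 (SD, n = 3). Mmp9 held 4.54% ± 0.52 and Mmp8 2.93% ± 2.13, and this last pair overlapped. In MIRI 3 and GXNI 3 the share of Mmp2 was down to 11.8% and 13.2%, while in MIRI 2 and GXNI 1 it stayed at 56.2% and 49.2%. The summed MMP level was 32.8 ± 4.4 CPM per kilobase in sham, 52.6 ± 18.8 in MIRI and 47.2 ± 8.2 in GXNI (SD, n = 3).

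MIRI against sham asks what the injury did without treatment. Timp1 was 8.23-fold higher, a log2 fold change of 3.04 ± 0.68 (SE, 3 against 3 libraries, unadjusted p = 0.0029, adjusted p = 0.0778 in edgeR's quasi-likelihood test), and was again the only called gene of the 9. This call too was lost without sham 1 (unadjusted p = 0.0119 in edgeR's quasi-likelihood test) or without sham 2 (0.0128). Over all genes, 362 of 15167 were called as higher without sham 1 and 340 of 15113 without sham 2. Mmp9 (2.92 ± 0.96), Mmp8 (2.54 ± 1.13) and Mmp14 (1.75 ± 0.53) had log2 fold changes that did not pass, and Mmp3 stood at 0.25 ± 0.20 and Timp3 at 0.17 ± 0.19 (SE). Mmp2 (-0.45 ± 0.28), Timp2 (-0.41 ± 0.27) and Timp4 (-0.34 ± 0.26) had negative values that did not pass either. In this comparison 6.15% of 14644 genes were called as higher, 2.82% as lower, and 0.0137% had an adjusted p of at most 0.05.

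The counts were highest without the library labelled MIRI 2. It was chosen for its profile, which lay beside sham, so leaving it out widens the difference for these genes and for all genes alike. Without it, 4 of the 9 genes were called as higher and 3 as lower, with adjusted p between 0.000195 and 0.0082 in edgeR's quasi-likelihood test. Mmp9 was then 11.04-fold, Timp1 11.3-fold, Mmp8 8.57-fold and Mmp14 4.40-fold higher. Timp2 was 1.75-fold, Mmp2 1.74-fold and Timp4 1.62-fold lower, while Mmp3 (0.37 ± 0.18) and Timp3 (0.17 ± 0.19) had log2 fold changes that did not pass (SE). The background was then 16.9% of genes called as higher and 13.3% as lower. In I/R against sham without the libraries labelled MIRI 2 and GXNI 3, the called genes were Timp1 (2.85 ± 0.45), Mmp9 (2.50 ± 0.44) and Mmp14 (1.37 ± 0.30) as higher and Timp4 (-0.63 ± 0.12) as lower on the log2 scale (SE), beside 10.2% and 7.02% of all genes.

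**Figure D3:**
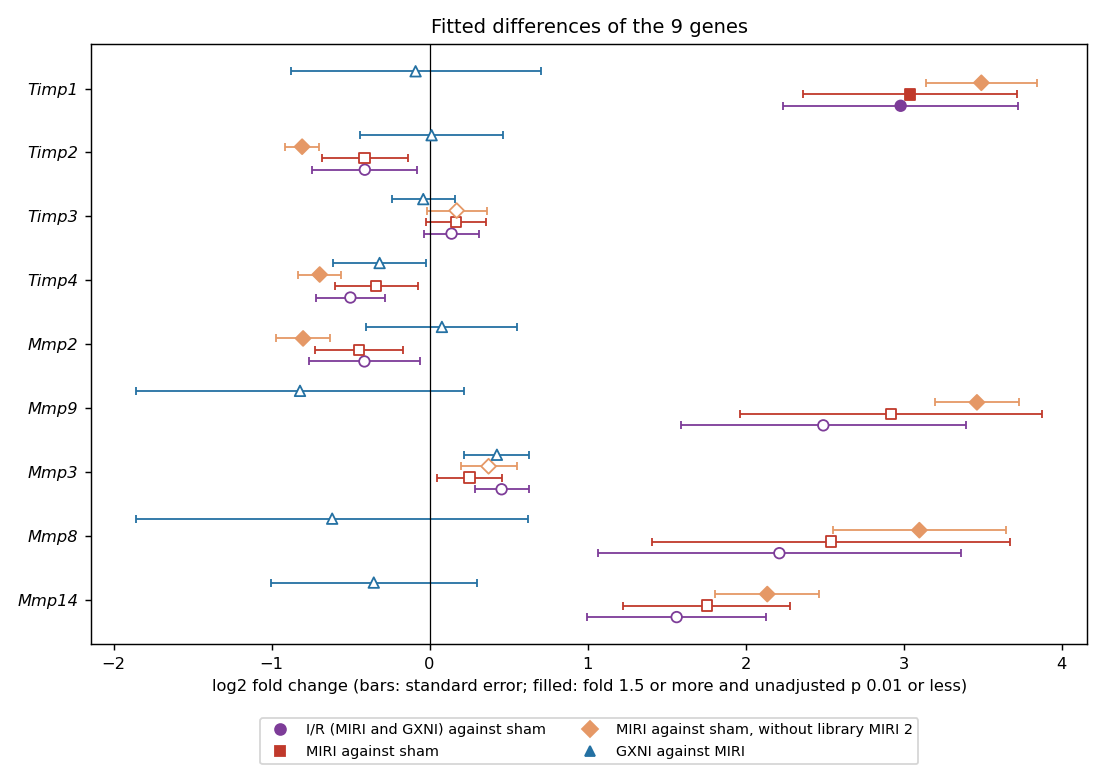
Log2 fold change of the 9 genes with its standard error, for I/R against sham, MIRI against sham with and without the library labelled MIRI 2, and GXNI against MIRI. Filled symbols passed a fold change of 1.5 and an unadjusted p of 0.01, which were Timp1 in both comparisons with sham and 7 genes in MIRI against sham without MIRI 2.

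GXNI against MIRI asks whether treatment changed these transcripts, and by the quasi-likelihood test of edgeR 0 of the 9 were called. The background was 0.0% of 14762 genes as higher and 0.0203% as lower, 0.0% had an adjusted p of at most 0.05, and 47 genes had an unadjusted p under 0.05, none of them among the 9. DESeq2 called 4 genes as higher and 7 as lower of 28122. At the same thresholds the study reported far more genes in both directions for this comparison, and also more for MIRI against sham. The reason for this difference was not tested. The log2 fold changes were -0.82 ± 1.04 for Mmp9, -0.62 ± 1.24 for Mmp8, -0.35 ± 0.65 for Mmp14 and -0.09 ± 0.79 for Timp1 (SE). Each of these errors is larger than its estimate, so neither direction nor size is determined for these 4 genes. The errors were smaller for Timp3 (-0.04 ± 0.20), Timp4 (-0.32 ± 0.29), Timp2 (0.01 ± 0.45) and Mmp2 (0.08 ± 0.48). Except for Timp4 they too were larger than the estimates, so direction is not determined for Timp3, Timp2 and Mmp2 either. Mmp3 had the smallest p of the 9, with a log2 fold change of 0.43 ± 0.21 (SE, unadjusted p = 0.0785, adjusted p = 0.99999 in edgeR's quasi-likelihood test).

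Without the libraries labelled MIRI 2 and GXNI 3, 2 libraries were left in each group. Mmp8 (-2.50 ± 0.62) and Mmp14 (-1.52 ± 0.31) were then called as lower in GXNI on the log2 scale (SE), with adjusted p of 0.189 and 0.188 in edgeR's quasi-likelihood test, beside 3.47% of genes called as lower and 1.52% as higher. Mmp9 (-1.90 ± 0.59) and Timp1 (-1.27 ± 0.51) did not pass. The libraries left out were chosen from their profiles, and GXNI 1, which lay near sham, was kept. On the first principal component MIRI 1 and MIRI 3 lay at 61.5 and 83.4, and GXNI 1 and GXNI 2 at -43.6 and 18.8. The 4 kept were thus apart by label there, so this comparison depends on that choice.

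Markers of other cell types moved with several of the genes. The 12 neutrophil markers summed to 25.5 to 50.5 CPM in sham, to 701.9, 24.4 and 617.0 CPM in MIRI 1 to 3 and to 42.4, 203.5 and 684.8 CPM in GXNI 1 to 3. Mmp8 and Mmp9 were high in the libraries with high sums and within or close to the sham range in MIRI 2 and GXNI 1, where the sums were at the sham level. Of the 12 markers 9 were tested in I/R against sham, all 9 had positive log2 fold changes with a median of 3.18, and 0 were called. In MIRI against sham 2 of 7 tested were called as higher, without MIRI 2 it was 10 of 10, and in I/R against sham without MIRI 2 and GXNI 3 it was 8 of 10. Over all genes 4.09% were called as higher in I/R against sham, and 6.15%, 16.9% and 10.2% in the other fits in turn. The granule genes of maturing neutrophils had few counts. Mpo had 0 counts in 8 of 9 libraries, and Camp had 0 to 5. Ltf had 0 counts in the sham libraries and 1 to 26 in the operated ones. Ngp had 2 to 3 counts in the sham libraries and 0 to 31 in the operated ones. In MIRI 2 and GXNI 1 Timp1 was at 32.1 and 36.3 CPM, beside neutrophil sums of 24.4 and 42.4 CPM. The 10 macrophage and monocyte markers had a mean log2 CPM of 4.94 to 5.07 in sham. It was 5.74, 3.98 and 5.74 in MIRI 1 to 3 and 5.04, 5.14 and 5.49 in GXNI 1 to 3. By mean log2 CPM, though not by sum, atrial (1.72) and adipocyte (0.94) markers were highest in MIRI 2. Mesothelial markers were highest in GXNI 1, with a sum of 96.7 CPM. The part of neutrophil, macrophage or other RNA in the levels of Mmp8, Mmp9, Mmp14 and Timp1 was not tested.

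The 10 fibroblast markers had a mean log2 CPM of 5.11 to 5.19 in sham, 4.60, 5.12 and 4.26 in MIRI 1 to 3 and 5.40, 4.49 and 4.31 in GXNI 1 to 3. Mmp2 and Timp2 were low in the same 4 libraries and highest in GXNI 1. The summed fibroblast marker level ranged from 1309 to 1540 CPM in sham, from 697.4 to 1388 in MIRI and from 801.6 to 1728 in GXNI. None of the 10 markers was at 0 in any library, 3 of 10 had positive log2 fold changes in I/R against sham, and 0 were called. Without MIRI 2, where Timp2, Mmp2 and Timp4 were called as lower in MIRI against sham, so were 5 of 10 fibroblast and 6 of 10 cardiomyocyte markers. Over all genes it was 13.3%. Of smooth muscle and pericyte markers 3 of 10 were also called as lower and 1 as higher, and of mesothelial markers 3 of 8 and 2. In I/R against sham without MIRI 2 and GXNI 3, the fibroblast and cardiomyocyte counts were 1 and 2 of 10, beside 7.02% of all genes. Timp4 did not share the order of the fibroblast markers, since it was low in GXNI 1. The 10 cardiomyocyte markers summed to 45943 to 49097 CPM in sham. They summed to 31728, 50204 and 35627 CPM in MIRI 1 to 3 and to 41283, 35313 and 33165 CPM in GXNI 1 to 3. Like Timp4, they were below every sham library in all operated libraries but MIRI 2. Within the GXNI group the sum was highest in GXNI 1, and Timp4 was highest in GXNI 2. The part of these cell types in the levels of Mmp2, Timp2 and Timp4 was not tested.

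**Figure D4:**
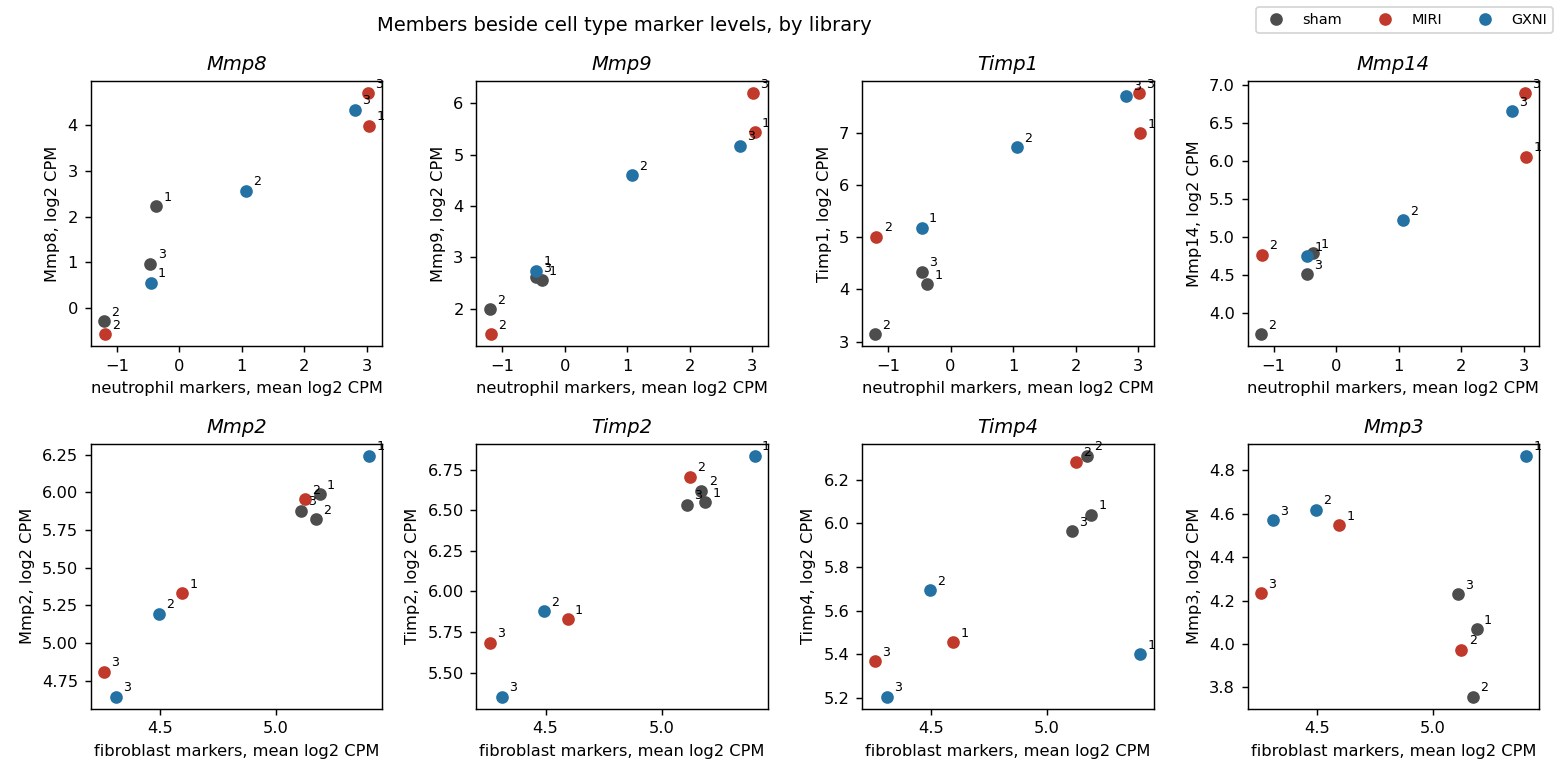
Log2 CPM of 8 of the 9 genes against the mean log2 CPM of 12 neutrophil markers (top) or 10 fibroblast markers (bottom), with 1 point for each library, numbered as labelled and coloured by group. Mmp8 and Mmp9 were high in the libraries with high neutrophil markers, Mmp2 and Timp2 were low in the libraries with low fibroblast markers, and Timp4 was low in GXNI 1 although its fibroblast markers were the highest.

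Likeness between genes was measured as the mean absolute difference of centred log2 CPM over the 9 libraries, among 15226 genes, where 0 means the same course. Mmp2 and Timp2 were the closest pair of the 9 genes at 0.092, and the next pair of a protease with an inhibitor, Mmp3 with Timp3, stood at 0.288. Mmp9 and Mmp8 stood at 0.505, Mmp9 and Timp1 at 0.563, and Mmp14 and Timp1 at 0.621. The 3 genes most like Mmp2 were Rnase4 (0.084), Podn (0.087), which encodes a small leucine-rich matrix protein, and Timp2. Those most like Timp2 were Lmbr1 (0.073), Bcas3 (0.077) and Rnase4 (0.079), so Rnase4 stood beside both.

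The genes most like Mmp9 were Clec4n (0.265), a lectin receptor of myeloid cells, H2-Q10 (0.278), whose reads may be shared with other H2-Q genes, and Csf2rb (0.288), a cytokine receptor chain of myeloid cells. For Mmp8 they were Drd1 (0.351), Samsn1 (0.389) and Csf3r (0.394), the receptor of the neutrophil growth factor G-CSF and a member of the neutrophil marker list. For Mmp14 they were Litaf (0.171), Rdh10 (0.191) and Il4ra (0.194), and for Timp1 they were Cd24a (0.203), Gm13889 (0.203) and Spred3 (0.219). Mmp3 was closest to Cxadr (0.072), the coxsackievirus and adenovirus receptor, Xpo6 (0.108) and Gm16574 (0.108). Timp3 was closest to Mat2a (0.091), Top1 (0.096) and Plcl1 (0.099), and Timp4 to Prepl (0.063), Galt (0.078) and Pm20d2 (0.086). Small distances are easier to reach for genes that vary little, such as Timp3 and Mmp3, than for Mmp8.

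The counts of the lists around matrix proteolysis stand beside 4.09% of all genes called as higher and 2.5% as lower in I/R against sham, and beside 10.2% and 7.02% without MIRI 2 and GXNI 3. Among the other MMP genes, 12 of 18 were tested in I/R against sham, 2 were called as higher and 0 as lower, with a median log2 fold change of -0.20 beside 0.00 over all genes. Mmp19 was at 3.82 to 6.93 CPM in sham and at 7.52 to 25.2 CPM in the operated libraries, a log2 fold change of 1.78 ± 0.48 (SE). Mmp24, a membrane-type enzyme, had 0 to 1 count in each sham library and 2 to 40 counts in the operated ones, too few for a fold change to be given. Without MIRI 2 and GXNI 3, 3 of the 12 were called as higher and 2 as lower, the latter being Mmp15 (-0.66 ± 0.15), which is a membrane-type enzyme, and Mmp28 (-0.995 ± 0.237, SE), both named after their values were seen.

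The ADAM and ADAMTS genes, related metalloproteinases that shed membrane proteins or cut proteoglycans, gave 5 called as higher and 0 as lower of 18 tested, with a median log2 fold change of 0.45. Adamts1, a protease of versican and aggrecan, was at 42.9, 42.9 and 37.6 CPM in sham and at 122.0 to 501.1 CPM in the operated libraries, a log2 fold change of 2.75 ± 0.59 (SE). Adamts8 (2.86 ± 0.58), Adam19 (2.11 ± 0.47) and Adamts9 (2.07 ± 0.60) were also above sham without overlap, on the log2 scale (SE). The counts were 8 and 2 without MIRI 2 and GXNI 3.

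In the plasminogen system, whose protease plasmin activates MMP precursors, 5 of 7 genes were tested, 1 was called as higher, 0 as lower, and the median log2 fold change was 1.16. The called gene, Plaur, the receptor of urokinase, was at 2.43 to 3.85 CPM in sham and 6.11 to 162.7 CPM in the operated libraries, a log2 fold change of 4.51 ± 1.29 (SE). Of the other inhibitors, clearance receptors and partners, 2 of 9 tested were called as higher and 0 as lower, with a median of 0.21. These were Thbs1, thrombospondin 1, which binds MMP2 and MMP9 (6.31 ± 1.53, SE), at 2.93 to 7.09 CPM in sham and 20.8 to 1008 CPM in the operated libraries, and Cd44, a hyaluronan receptor that anchors MMP9 (2.85 ± 0.85, SE).

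Of the cytokines and transcription factors known to induce MMP genes, all 16 had positive log2 fold changes in I/R against sham, with a median of 1.55, yet only Fos passed the test. Fos, a subunit of AP-1, was at 3.33, 0.64 and 3.53 CPM in sham and at 7.99 to 48.1 CPM in the operated libraries, a log2 fold change of 3.18 ± 0.80 (SE). Without MIRI 2 and GXNI 3, 10 of the 16 were called as higher. Of the matrix substrates, 5 of 16 were called as higher and 0 as lower, with a median of 0.41. Those without overlap were Vcan (2.03 ± 0.46), the proteoglycan versican, Fn1 (1.94 ± 0.56), fibronectin, and Col4a2 (1.31 ± 0.33) and Col4a1 (1.28 ± 0.35), the chains of basement membrane collagen, on the log2 scale (SE). The fifth, Tnc, overlapped the sham range in GXNI 1. Every gene called in these lists had an adjusted p of 0.120 to 0.128 in edgeR's quasi-likelihood test, and 0 genes of any list were called in GXNI against MIRI.

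**Figure D5:**
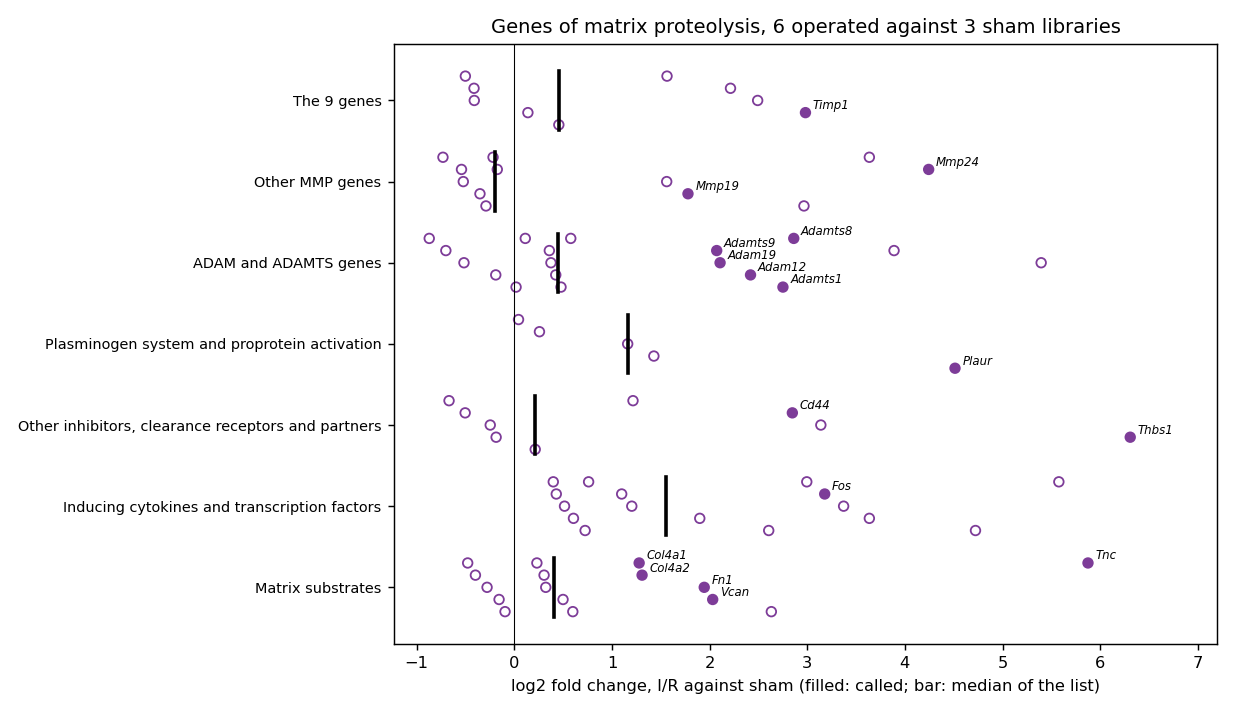
Log2 fold change in I/R against sham (horizontal axis) of the 9 genes and of the tested genes of 6 lists around matrix proteolysis, 1 point for each gene, with filled points called at a fold change of 1.5 and an unadjusted p of 0.01 and a bar at the median. All called genes were higher, and Mmp24 rests on 0 to 1 count in each sham library.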

How the data were processed

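Per the labels and the study's methods, the authors discarded reads with adapter, poly-N or low quality, aligned those left by HISAT2 (genome build mm10 in the submitters' processing notes) and counted reads per gene with featureCounts of Subread. The tool versions, annotation release and strand setting are not given in the sources used here. The values deposited by the authors are whole-number counts, not normalized, with 1 column for each library. Columns of the authors' own comparisons (fold changes, p-values) were not used, and 0 columns of other samples were present. Symbols, positions and exon lengths come from GENCODE M21, and 123 of 54532 identifiers had no symbol.

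Counts were fitted over all genes with edgeR 4.0.16 in R 4.3.3 (TMM, its default filter on low counts, quasi-likelihood F test, no covariate). MIRI against sham and GXNI against MIRI used 6 libraries each, and I/R against sham all 9. SE is the log2 fold change divided by the square root of F. Log2 CPM used a prior count of 0.5. Fits were tested on simulated data.

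The members and lists were chosen with earlier results of these data known. Named genes are the 9 members, up to 4 called genes without overlap per list, and the 3 genes most like each member. A list gene is not reported here and was left out of its list's counts. List counts without MIRI 2 and GXNI 3 were added after the values were seen. The alternatives were DESeq2 1.42.0, RLE scaling, no filter, a replicate block, other samples in the fit, an adjusted p and libraries left out. No 2 libraries agreed within sampling noise (smallest chi-square per degree of freedom 13.2).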

Additional observations from a re-analysis of the deposited data

How the results depend on the processing

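The counts of called genes among the 9 depend on the tool, the filter and single libraries. In I/R against sham, where 1 was called as higher and 0 as lower, DESeq2 called 3 as higher, edgeR without the filter 3, the fit with the replicate number as a block 2 and the fit without the libraries labelled MIRI 2 and GXNI 3 gave 3 higher and 1 lower. At an adjusted p of at most 0.05 it was 0, and leaving out each library in turn gave 0 to 3 higher and 0 to 1 lower. In MIRI against sham the values were 3 for DESeq2, 3 without the filter, 2 with the block and 0 by adjusted p, and leaving out each library gave 0 to 4 higher and 0 to 3 lower. The lowest counts came without sham 1 or sham 2, where Timp1 was lost, and the highest without MIRI 2. Without MIRI 2, I/R against sham called 1448 of all genes as higher and 985 as lower of 15648. MIRI against sham then called 2571 and 2021 of 15207. The genes gained with DESeq2 and without the filter were Mmp9 and Mmp14, and with the block Mmp14. The cause of these differences was not tested. RLE scaling, 1 operated group in place of 2, and all 9 libraries in 1 fit gave counts equal to those reported. Over all genes, I/R against sham called 622 as higher and 380 as lower of 15207, DESeq2 1343 and 601 of 29337, and the fit without the filter 1209 and 684 of 29344. MIRI against sham called 900 and 413 of 14644, DESeq2 1491 and 760 of 27898, and the fit without the filter 1603 and 803 of 27901. Same-numbered libraries shared no origin in the labels and did not deviate together throughout (correlations from -0.445 to 0.700), so the block is not a paired analysis, and it gave 620 and 443 calls in I/R against sham and 698 and 367 in MIRI against sham.

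In GXNI against MIRI, 2 genes were called as lower without MIRI 2 and GXNI 3 and 0 in all other fits. The sign of several log2 fold changes was not stable there. With the block, Mmp2 stood at -0.00301 and Timp2 at -0.0528, Timp2 stood at -0.00113 with DESeq2, and Timp4 stood at 0.0478 without MIRI 2 and at 0.154 without MIRI 2 and GXNI 3. Leaving out each library gave -0.51 to 0.44 for Mmp2, -1.94 to 0.14 for Mmp8, -1.14 to 0.22 for Mmp14, -0.82 to 0.54 for Timp1, -0.52 to 0.42 for Timp2, -0.16 to 0.10 for Timp3 and -0.495 to 0.0478 for Timp4. In both comparisons with sham, none of the 9 genes changed sign under any alternative.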
